A study of Mus musculus with 8 samples.

Results

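The lysyl oxidase family comprises the 5 genes Lox, Loxl1, Loxl2, Loxl3 and Loxl4, which were taken by gene symbol from the 54658 genes of the count table. All 5 passed the filter on low counts, which 14404 genes passed. RNA-Seq covered primary articular chondrocytes that had been dissected from the femoral heads of mice, which the methods describe as wild-type and 3 weeks of age. The cells were treated for 24 h with IL-1β at 1 ng/mL (4 samples) or with vehicle (4 samples), and no genotype or other agent set the groups apart. The labels do not say whether the 4 samples of a group came from separate cultures or animals, so p-values measure only the spread between these samples. The sequencing totals were 10992355 to 17456063 counts per sample. The 8 chondrocyte markers examined, among them Col2a1 and Acan, summed to 14702 to 15272 CPM (reads of a gene scaled to a fixed library total) in the vehicle samples and to 3698 to 4067 CPM in the IL-1β samples, and all 8 were lower with IL-1β. Macrophage markers summed to 14.8 to 16.8 CPM with vehicle and 29.9 to 33.5 CPM with IL-1β, fibroblast markers to 37.7 to 40.4 and 56.9 to 60.8 CPM, and osteoblast markers to 84.0 to 94.9 and 25.9 to 31.4 CPM. Of the macrophage markers, Cd14 (3.85 to 13.99 CPM) and Cd68 (9.48 to 14.99 CPM) were higher with IL-1β, whereas Lyz2 was lower (1.86 to 1.24 CPM). The means of Ptprc, Adgre1 and Csf1r were under 1 CPM in both groups. Of the fibroblast markers, Pdgfra (27.6 to 41.2 CPM) and Cd34 (10.3 to 17.5 CPM) were higher with IL-1β. Thy1, Dpt and Pi16 had means under 1 CPM in both groups, each lower with IL-1β, and were not tested. The summed endothelial, muscle and adipocyte markers did not exceed 1.39 CPM in any sample. Their part in the results was not tested. In these bulk samples, fewer cells of a type and less RNA per cell cannot be told apart.

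Lysyl oxidases are secreted copper enzymes that convert lysine and hydroxylysine side chains of collagen and elastin into aldehydes, which then join neighbouring chains by covalent crosslinks. Lox and Loxl1 are made with a propeptide that proteinases such as Bmp1 remove outside the cell, whereas Loxl2, Loxl3 and Loxl4 carry scavenger receptor cysteine-rich domains in its place. In cartilage these crosslinks hold the fibrils of type II collagen together.

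The catalytic end of all members holds a short copper-binding stretch with 4 histidines, a feature that these genes share. It is shown here for Loxl1, Loxl2, Loxl3 and Loxl4, whose transcripts all fell with IL-1β. The stretch of Lox, the member that rose, is not shown. The coding sequence of 48 bases was read from GENCODE vM21 transcripts (GRCm38) for the 4 genes whose sequence is given, with the 4 histidine codons in capitals. In each gene it spans the junction of 2 exons, so the coordinates include an intron. The stretches lie at chr9:58293705-58294381 on the minus strand (exons 3 and 4 of Loxl1), chr14:69682316-69689052 on the plus strand (exons 10 and 11 of Loxl2), chr6:83049995-83050140 on the plus strand (exons 10 and 11 of Loxl3) and chr19:42598792-42599899 on the minus strand (exons 11 and 12 of Loxl4).
Loxl1: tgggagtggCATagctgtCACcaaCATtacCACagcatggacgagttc
Loxl2: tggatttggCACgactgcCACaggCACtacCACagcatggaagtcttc
Loxl3: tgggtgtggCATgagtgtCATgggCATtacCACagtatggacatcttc
Loxl4: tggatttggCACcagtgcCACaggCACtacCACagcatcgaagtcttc
Loxl2 and Loxl4 shared 45 of the 48 bases and used the codon CAC for all 4 histidines. The other pairs of the 4 genes shown shared 32 to 37 bases. Of the pairs with Lox, Lox and Loxl1 shared 46 bases and the others 33 to 35. Over whole transcripts, no stretch of 50 bases was shared between any members of the family, so reads could not be assigned to a sister gene by an identical match of that length.

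IL-1β raised 1 member of the family and lowered the other 4. Lox rose 2.88-fold, whereas Loxl3 fell 2.76-fold, Loxl2 2.20-fold, Loxl4 1.89-fold and Loxl1 1.25-fold. Each change passed edgeR's quasi-likelihood test at an adjusted p under 0.05. Among all genes tested, 20.4% were called higher and 19.8% lower at that threshold. Lox, Loxl2 and Loxl3 were also differentially expressed genes (DEGs), defined by an additional change of more than 2-fold, a class that held 2.86% of genes on the higher side and 2.35% on the lower side. The groups of 4 samples did not overlap for any of the 5 genes, as was also the case for 36.8% of all genes tested. The median log2 fold change of all tested genes was -0.0012.

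**Figure D1:**
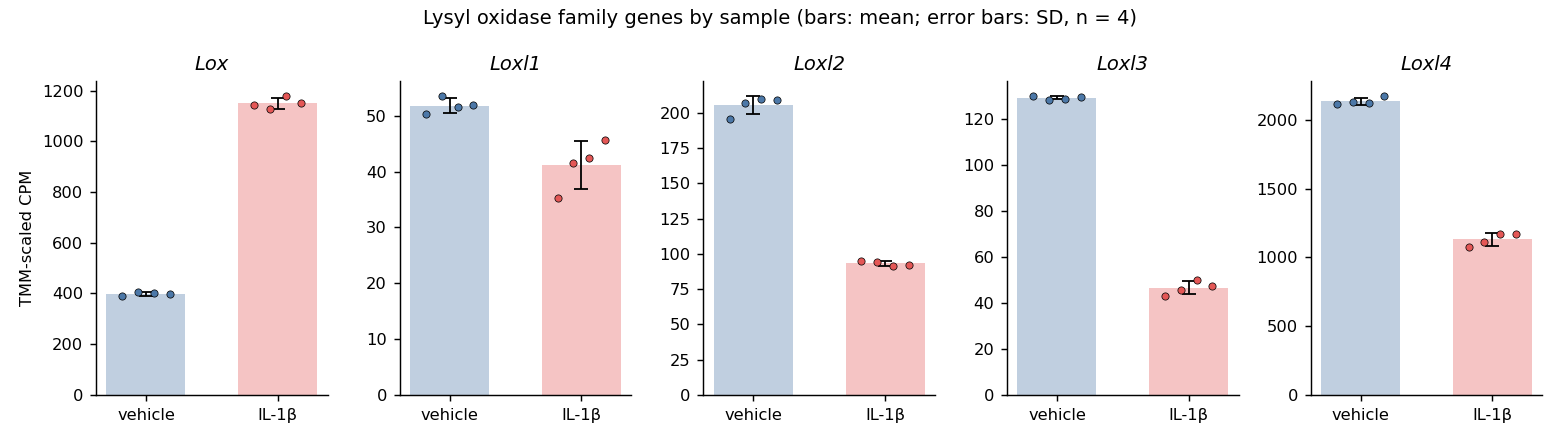
Level of each lysyl oxidase gene in CPM scaled by TMM (vertical axis, linear, starting at 0, 1 panel a gene), with points for the samples of the vehicle and IL-1β groups, bars for the mean and error bars for the SD (n = 4). Lox lies at 1125 to 1179 CPM with IL-1β and 389 to 406 CPM with vehicle, and the IL-1β points of the other 4 genes all lie below their vehicle points.

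Lox, the founding member, encodes the oxidase that acts on fibrillar collagens and elastin. With IL-1β its level was 1143, 1125, 1179 and 1151 CPM in replicates 1 to 4, and with vehicle it was 389, 406, 402 and 397 CPM. Every IL-1β sample was therefore far above every vehicle sample, with a gap of 719.7 CPM between the groups, and the samples within a group differed little. The means were 1149 ± 22.2 and 399 ± 7.07 CPM (SD, n = 4), for a log2 fold change of 1.53 (SE 0.0294, edgeR adjusted p = 5.61e-26). Of all genes tested, 203 (1.41%) rose by as much or more. Between 5638 and 19845 reads were counted for Lox in each sample. The gene lies on chromosome 18 (GRCm38, 52516067 to 52529867, minus strand, ENSMUSG00000024529.14), and 30 bases of its exons overlap AC161119.1 on the other strand.

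Loxl1, the other member with a propeptide, acts mainly in elastic fibre assembly. It was counted at 35.3, 41.6, 42.5 and 45.6 CPM with IL-1β and at 50.2, 53.6, 51.6 and 51.9 CPM with vehicle. IL-1β replicate 1 was the lowest of all samples, and the groups were separated by only 4.65 CPM. The means were 41.3 ± 4.31 and 51.8 ± 1.36 CPM, for a log2 fold change of -0.32 (SE 0.0528, edgeR adjusted p = 1.24e-05), and without IL-1β replicate 1 it was -0.26. A fall of at least this size was seen in 11.7% of genes tested, so Loxl1 changed least of the family. It had 392 to 927 reads per sample. Loxl1 lies on chromosome 9 (58287738 to 58313186, minus strand, ENSMUSG00000032334.10).

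Loxl2 encodes an oxidase that crosslinks type IV collagen of basement membranes and is also made by hypertrophic chondrocytes. The IL-1β samples held 95.2, 94.0, 91.4 and 92.4 CPM and the vehicle samples 196, 207, 209.9 and 209 CPM. The highest IL-1β sample was below the lowest vehicle sample by 101 CPM, with little spread inside either group. The means were 93.3 ± 1.69 and 205.5 ± 6.52 CPM, and the log2 fold change was -1.14 (SE 0.0316, edgeR adjusted p = 3.78e-22). As many as 257 genes (1.78%) fell as far or further. Loxl2 lies on chromosome 14 (69609068 to 69695834, plus strand, ENSMUSG00000034205.16), and 5.70% of its exonic bases overlap Gm27177 and Mir6950. Of its 5356 windows of 50 bases, 2410 (45.0%) also occur in transcripts of other genes. The effect of this on its count was not tested.

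Loxl3, whose loss causes cleft palate and spinal defects in mice, showed the steepest fall of the family. Its levels were 43.2, 45.9, 50.0 and 47.6 CPM with IL-1β and 130.1, 128.5, 129.0 and 129.6 CPM with vehicle. The vehicle samples were almost equal, and the IL-1β samples stood at 36.2% of their level. The log2 fold change was -1.46 (SE 0.0400, edgeR adjusted p = 2.71e-22), from 129.3 ± 0.698 to 46.6 ± 2.86 CPM, and 140 genes (0.972%) fell as far or further. Loxl3 lies on chromosome 6 (83034173 to 83052562, plus strand, ENSMUSG00000000693.10), where 535 bases (11.6%) of its exons overlap Htra2 on the other strand. For Htra2 itself the mean was 36.2 ± 0.610 CPM in the IL-1β group and 35.5 ± 1.49 CPM in the vehicle group (log2 fold change 0.03, edgeR adjusted p = 0.721). Whether the counting used strand is not given in the sources used here.

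Loxl4 encodes a further oxidase of collagen and, per length of gene, was the most abundant member in both groups. Samples with IL-1β had 1077, 1109, 1167 and 1172 CPM, and samples with vehicle had 2114, 2129.9, 2123 and 2175 CPM. The lowest vehicle sample exceeded the highest IL-1β sample by 942 CPM. The means were 1132 ± 46.2 and 2136 ± 26.9 CPM, and the log2 fold change of -0.92 (SE 0.0291, edgeR adjusted p = 1.06e-20) stayed short of the 2-fold limit for a DEG. A fall as large or larger was seen in 380 genes tested (2.64%). The gene lies on chromosome 19 (42593982 to 42612813, minus strand, ENSMUSG00000025185.14), and 11953 to 36866 of its reads were counted per sample.

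To compare levels between genes, CPM was divided by the listed gene length in kilobases (CPM per kb). With vehicle, Loxl4 led at 506.9 ± 6.39 CPM per kb, and Lox followed at 82.9 ± 1.47, 6.12-fold lower. Below them, Loxl2 was at 38.0 ± 1.21, Loxl3 at 28.1 ± 0.152 and Loxl1 at 15.7 ± 0.413 CPM per kb, and no neighbours in this order had overlapping samples. With IL-1β, Loxl4 was at 268.6 ± 11.0 and Lox at 239.0 ± 4.61 CPM per kb, only 1.12-fold apart, although the lowest Loxl4 sample still lay above the highest Lox sample. Loxl2 (17.3 ± 0.313), Loxl1 (12.5 ± 1.31) and Loxl3 (10.1 ± 0.622) made up the rest, and the samples of Loxl1 and Loxl3 overlapped. In undivided CPM with IL-1β, Lox averaged 1149 and Loxl4 1132 and their samples overlapped, so their order rests on the listed lengths. The level of Loxl2 also depended on the length used. In an alternative chosen after seeing the data, the same CPM was divided by the number of windows of 50 bases found in no other gene. Reads were not recounted, so this length holds only if reads from shared windows were left out of the counts, which was not tested. On that scale Loxl2 was at 69.8 ± 2.21 CPM per kb with vehicle and 31.7 ± 0.575 with IL-1β. Lox exceeded it 1.21-fold with vehicle, rather than 2.18-fold, and 7.68-fold with IL-1β, rather than 13.9-fold. The samples of Lox and Loxl2 did not overlap on that scale either. Among all tested genes ranked by CPM per kb, Lox moved from rank 427 to rank 138 and Loxl3 from 1476 to 4125.

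The family sum fell from 672 ± 7.76 to 547 ± 15.7 CPM per kb, a 1.23-fold decrease. The sums were 531, 537, 563 and 559 CPM per kb with IL-1β and 663, 672, 670.1 and 681 with vehicle. The log2 difference of -0.30 had an exact permutation p of 0.0286, two-sided, the smallest that 4 against 4 samples allow. Without Lox, the sum of the other 4 genes was 308 ± 12.4 with IL-1β and 589 ± 7.26 with vehicle.

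**Figure D2:**
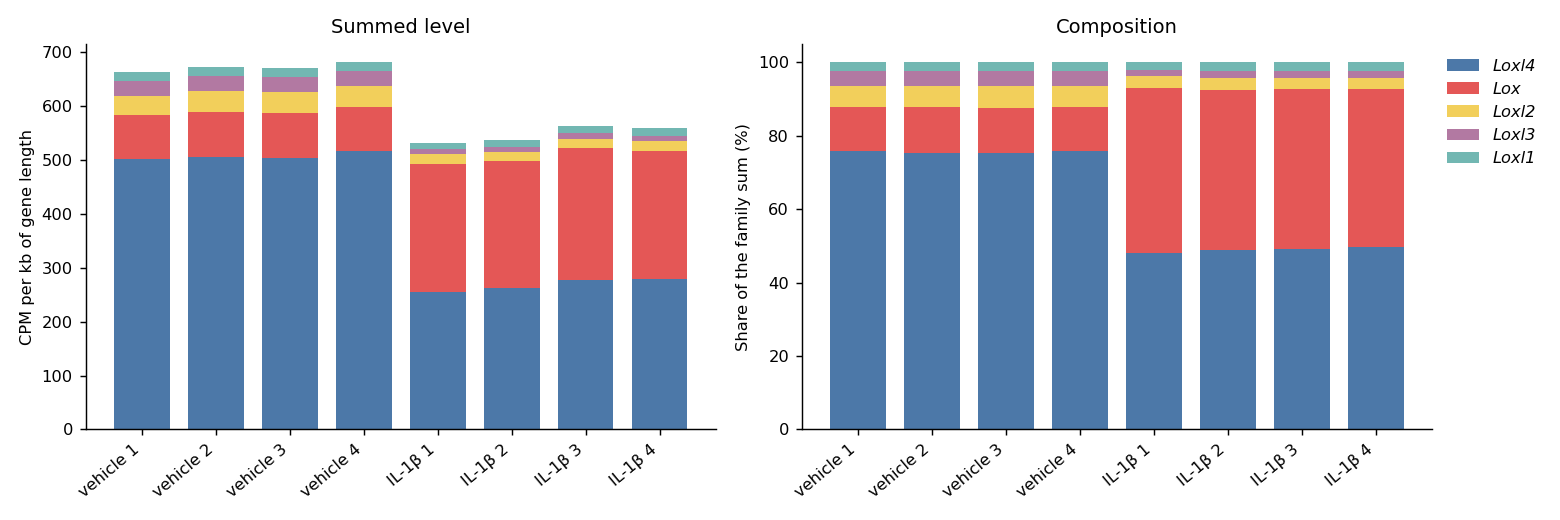
Stacked bars give the level of each lysyl oxidase gene in each sample as CPM per kb of gene length (left, linear axis from 0) and as a percentage of the family sum (right). Lox makes up 43.7% of the sum on average with IL-1β and 12.3% with vehicle, while Loxl4 goes from 75.5% to 49.0%.

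The make-up of the family changed with IL-1β. Lox held 43.7% ± 0.806 of the sum with IL-1β and 12.3% ± 0.203 with vehicle, and Loxl4 held 49.0% ± 0.690 and 75.5% ± 0.317. The shares of Loxl2 (3.15% ± 0.147 and 5.66% ± 0.137) and Loxl3 (1.85% ± 0.0664 and 4.18% ± 0.0595) were lower with IL-1β. For each of these 4, the exact permutation p was 0.0286, or 0.0357 when adjusted over the 5 shares. For Lox this outcome was already fixed, because only Lox rose and the groups did not overlap for any member. Shares of the same sum are not independent, so the rise of Lox also lowers the shares of the others. The share of Loxl1 was 2.28% ± 0.193 with IL-1β and 2.34% ± 0.0529 with vehicle, with an exact p of 0.743, and without IL-1β replicate 1 this share was 0.0314 percentage points higher with IL-1β. With only the windows not found in other genes as length, the share of Loxl2 was 9.97% with vehicle and 5.63% with IL-1β, and it fell by 4.35 rather than 2.51 percentage points. The ratio of Lox to Loxl4 per kb was 0.891 ± 0.0290 with IL-1β and 0.163 ± 0.00337 with vehicle.

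Because every pair of genes is measured in the same samples, the 10 pairwise ratios test whether members responded differently, whatever the scaling between libraries. All 10 had an exact p of 0.0286 (0.0286 adjusted over the 10), the smallest possible. For the 4 pairs with Lox this outcome was already fixed, because only Lox rose and the groups did not overlap for any member. Lox rose relative to each of the others, by 1.86 in log2 ratio against Loxl1, 2.45 against Loxl4, 2.67 against Loxl2 and 3.00 against Loxl3. Loxl1 rose relative to Loxl4 by 0.58, to Loxl2 by 0.81 and to Loxl3 by 1.14. The 3 members with scavenger receptor domains also diverged from each other. The ratio of Loxl2 to Loxl3 was higher by 0.33, that of Loxl2 to Loxl4 fell by 0.22, and that of Loxl3 to Loxl4 fell by 0.56. The call for Loxl2 against Loxl4 was lost without vehicle replicate 2, 3 or 4 (log2 differences of -0.22, -0.21 and -0.22, exact p = 0.0571 each).

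The substrates of these enzymes, the 11 fibrillar collagen genes, also changed. Of these, 7 fell, 3 rose and Col1a1 was not called, with a median log2 fold change of -1.03. For these and the partner genes that follow, the shares to set beside the counts are the 20.4% of all tested genes called higher and the 19.8% called lower. Their sum was 583 ± 16.3 CPM per kb with IL-1β and 1681 ± 22.4 with vehicle. Set against it, the lysyl oxidase sum was 93.8%, 93.0%, 96.3% and 92.4% of the collagen sum in the IL-1β samples and 39.5%, 39.9%, 40.5% and 39.9% in the vehicle samples. The groups were far apart, and the ratio was 2.35-fold higher with IL-1β (log2 difference 1.23, exact permutation p = 0.0286, two-sided). The size depended on the collagens chosen. Col2a1 alone held 1211 of the 1681 CPM per kb of the collagen sum with vehicle and 308 of the 583 with IL-1β (log2 fold change -1.98, edgeR adjusted p = 4.08e-30). Its fall therefore weighed most in the ratio. The log2 difference was 1.64 against Col2a1, Col11a1 and Col11a2, the chains of cartilage fibrils, and 0.20 against Col1a1, Col1a2 and Col3a1, those of other connective tissues. Col1a2 fell from 176 to 82.6 CPM (log2 fold change -1.10, edgeR adjusted p = 7.41e-22) and Col5a2 rose from 812 to 1199 CPM (0.56, edgeR adjusted p = 2.75e-16).

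**Figure D3:**
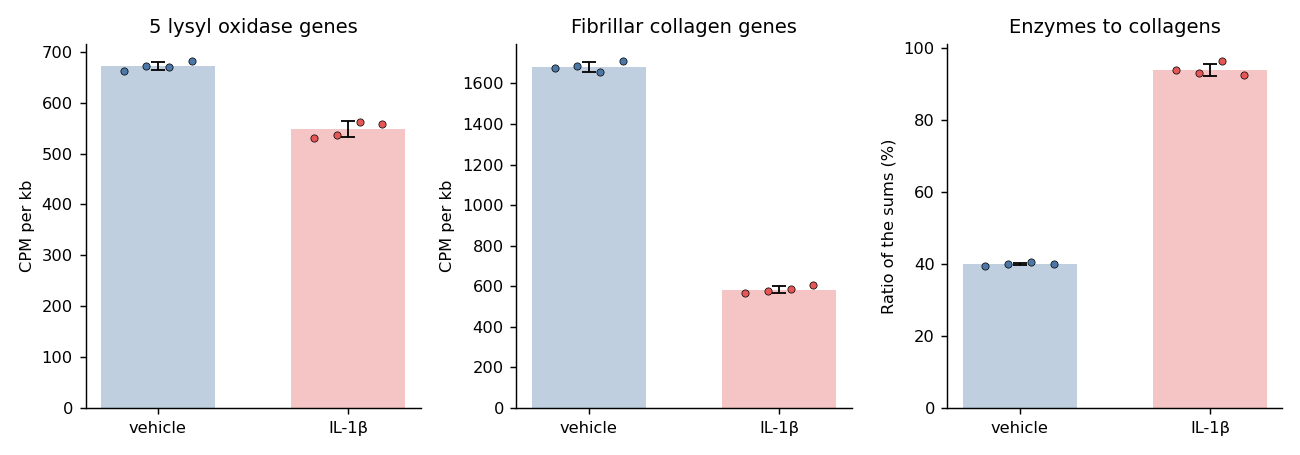
Summed CPM per kb of the 5 lysyl oxidase genes (left), that of the 11 fibrillar collagen genes (middle) and the first as a percentage of the second (right), with points for samples, bars for means and error bars for the SD (n = 4), on axes that start at 0. The percentage is 92.4 to 96.3 with IL-1β and 39.5 to 40.5 with vehicle.

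Among genes that remove the propeptides of lysyl oxidases or collagens, or enhance that removal, 3 of 7 tested fell and none rose, with a median log2 fold change of -0.33. Those that fell were the enhancers Pcolce and Pcolce2 and the proteinase Adamts2, whereas the proteinase Tll1 was not called (edgeR adjusted p = 0.701). Bmp1, the main propeptide proteinase, was at 34.1, 38.7, 39.3 and 37.0 CPM with IL-1β and 36.7, 35.7, 41.1 and 39.6 CPM with vehicle, so the groups overlapped (edgeR adjusted p = 0.727). Its enhancer Pcolce fell from 60.4 to 23.7 CPM (log2 fold change -1.34, SE 0.0548, edgeR adjusted p = 4.71e-18), and Pcolce2 fell from 60.5 to 23.5 CPM (-1.36, edgeR adjusted p = 3.80e-19). Fn1, the fibronectin that binds Lox and Bmp1, fell from 39401 to 26811 CPM (-0.56, edgeR adjusted p = 3.28e-19). Fmod, the fibromodulin that binds collagen and Lox, fell from 385 to 90.1 CPM (-2.09, edgeR adjusted p = 3.32e-26). Of the 12 elastic fibre and matrix partners tested, 6 fell and 3 rose, and the median log2 fold change was -0.04. Fbln5, which recruits Loxl1 to elastic fibres, rose from 88.3 to 105.1 CPM (0.25, edgeR adjusted p = 4.32e-06), while Efemp2, which binds Lox, fell from 173.9 to 152.5 CPM (-0.19, edgeR adjusted p = 3.74e-05). Eln, the elastin that Loxl1 crosslinks, had 0 to 12 reads per sample, and Postn had 1 to 7, and neither was tested.

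The lysyl hydroxylases Plod1, Plod2 and Plod3 make the hydroxylysines that lysyl oxidases also act on. They were grouped with collagen chaperones and other genes of collagen modification, 9 genes with a median log2 fold change of -0.31. Of these 9, 6 fell and 1, Plod1, rose from 242 to 325 CPM (log2 fold change 0.43, edgeR adjusted p = 4.91e-12). Plod2, whose hydroxylation of telopeptides sets the type of crosslink, fell from 385 to 305 CPM (-0.33, edgeR adjusted p = 9.46e-10), and Plod3 fell from 131 to 110.3 CPM (-0.25, edgeR adjusted p = 1.29e-06). Serpinh1, a collagen chaperone, fell from 2982 to 1916 CPM (-0.64, edgeR adjusted p = 3.43e-17).

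Genes of copper supply were the group with no member called lower. Of 8, 4 were called higher, and the median log2 fold change was 0.13. Atp7a, the pump that loads copper into secreted enzymes, was at 52.9, 51.0, 47.1 and 46.3 CPM in the IL-1β samples, against 40.7, 37.8, 40.4 and 39.2 CPM after vehicle (log2 fold change 0.31, SE 0.0479, edgeR adjusted p = 3.76e-06). Atp7b, a related pump, was low but rose from 1.10 to 2.71 CPM (1.33, edgeR adjusted p = 1.16e-05). Slc31a1, the copper importer, rose by 0.12 (edgeR adjusted p = 0.0421), and Atox1, a copper chaperone, by 0.19 (edgeR adjusted p = 0.00585), the groups of Atox1 overlapping.

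Of 5 other crosslinking enzymes tested, 2 rose and 2 fell (median log2 fold change -0.06). Tgm2, a transglutaminase, rose from 16.2 to 36.9 CPM (log2 fold change 1.18, edgeR adjusted p = 1.06e-15), and F13a1, the factor XIII A chain, fell from 10.7 to 3.92 CPM (-1.43, edgeR adjusted p = 1.09e-10). Tgm1, the other that rose, had 32, 41, 38 and 50 reads with IL-1β and 5, 0, 1 and 3 reads with vehicle. It passed the filter on low counts only through the IL-1β samples (2.26 to 3.55 CPM, against 0 to 0.288 CPM with vehicle). Its call as higher is therefore tied to how it entered the test. Of the 11 regulators of lysyl oxidase genes tested, 6 rose and 4 fell (median log2 fold change 0.17). Hif1a, a hypoxia factor, rose from 491 to 705 CPM (0.52, edgeR adjusted p = 2.63e-14). Epas1 rose from 35.9 to 57.3 CPM (0.67, edgeR adjusted p = 1.65e-12). Tgfb1 rose from 33.5 to 46.5 CPM (0.47, edgeR adjusted p = 4.94e-09). Ctgf fell from 384 to 147 CPM (-1.39, edgeR adjusted p = 1.02e-23) and Tgfb2 from 53.4 to 28.7 CPM (-0.89, edgeR adjusted p = 2.33e-15). Snai2 fell from 89.4 to 43.5 CPM (-1.04, edgeR adjusted p = 1.34e-18). Whether these regulators bear on the members of the family was not tested. Across the 7 groups of partner genes, the collagens included, 19 of 63 tested genes were called higher (30.2%, against 20.4% of all genes) and 28 lower (44.4%, against 19.8%). The 19 include Tgm1. The lists were chosen with earlier results of these data known, so these shares describe the lists and are no test of them.

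**Figure D4:**
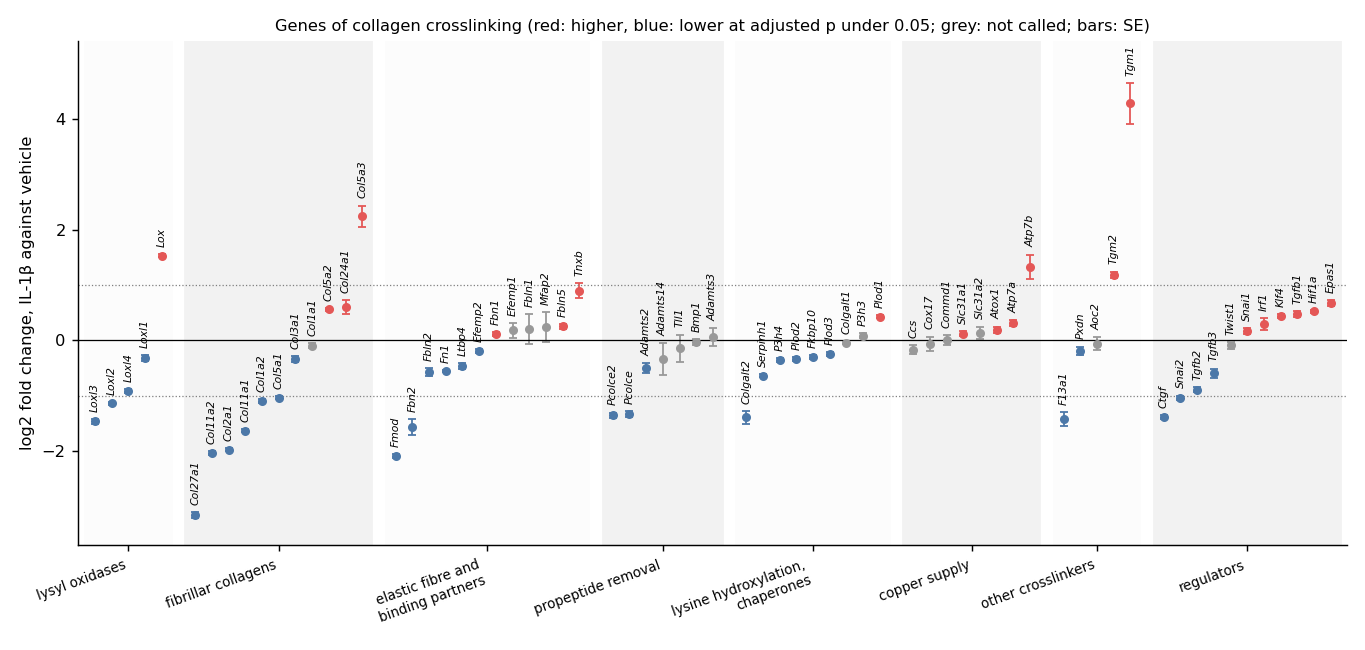
log2 fold change of IL-1β against vehicle (vertical axis, linear, dotted lines at 2-fold) for each tested gene of the lysyl oxidase family and 7 groups of partner genes, with bars for the SE. Red points were called higher, blue lower and grey not called at an adjusted p under 0.05; in the family, Lox is at 1.53 and Loxl3 at -1.46. Tgm1, plotted highest, has 0 to 5 vehicle reads and so a fold that depends on the fit.

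The genes whose level followed each member most closely over the 8 samples were named by their correlation of log2(CPM + 1). The 3 nearest to Lox were Mt1, Sod2 and Slc48a1, to Loxl1 Isg20, Shtn1 and Card19, to Loxl2 Mef2c, Fgfr2 and Sdc2, to Loxl3 Sox9, Fmod and Gdf10, and to Loxl4 Bgn, P3h2 and Sdk2. The number of tested genes with r above 0.95 was 1017 for Lox, 79 for Loxl1, 879 for Loxl2, 888 for Loxl3 and 880 for Loxl4. All 8 points share the same 2 treatments and libraries, so r is a description here.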

How the data were processed

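Reads were trimmed by the authors (cutadapt), mapped to mm10 using STAR with the GENCODE vM20 annotation (version 2.4.2a in the submitters' notes, another in the methods) and assigned to genes by featureCounts of Subread. They deposited whole-number counts per gene, with a length column in bases (unit: other) beside them, and name DESeq2 among their tools. Whether the deposited counts precede the RUVseq batch correction of the methods is not stated. All 8 count columns were used, and columns of per-sample values not used numbered 0.

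After TMM scaling, edgeR 4.0.16 in R 4.3.3 fitted the counts to treatment alone, with quasi-likelihood p-values for the 14404 genes whose CPM exceeded 1 in at least 4 samples, and p was Benjamini-Hochberg adjusted over these. The common biological coefficient of variation was 4.11% and the prior degrees of freedom 20.9. DEGs had an adjusted p under 0.05 and a log2 fold change beyond 1. Sums, shares and ratios per sample were tested by exact two-sided permutation over 70 arrangements. The code was tested on simulated data. At these totals 3 counts were 0.172 to 0.273 CPM, for counting error only. Positions and sequences came from GENCODE vM21 (GRCm38, the assembly of mm10). The members and the lists were chosen with earlier results of these data known, and a rule named the members, the listed partners and, for each member, the 3 genes most like it. Alternatives were DESeq2 1.42.0, other size factors and filters, 1 factor from RUVs, glmTreat, the replicate number as a block, other gene lengths and collagen lists, and each sample left out in turn. Other work used Python 3.11.15, numpy 2.4.6, pandas 2.3.3, scipy 1.17.1 and matplotlib 3.10.9.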

Additional observations from a re-analysis of the deposited data

How the results depend on the processing

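Of 236 tested values recomputed under alternatives, 231 kept their direction and side of the threshold, 2 reversed and 3 lost their call. Of 137 recomputed counts of genes, 57 equalled the main count, 132 lay within 1.5 times of it and 5 did not. All 75 log2 fold changes of the 5 members kept theirs. The share of Loxl1 in the family sum, not called in any setting, reversed to 0.0107 percentage points with the longest coding transcript as length (an alternative chosen after seeing the data), and lay between -0.121 and 0.0314 when a sample was left out, positive without IL-1β replicate 1. The 3 lost calls were the Loxl2 to Loxl4 ratio without vehicle replicate 2, 3 or 4 (exact p = 0.0571). Over all samples left out in turn, its log2 difference was -0.26 to -0.20. Counts of DEGs over all genes were 635 higher and 571 lower with no filter, 266 higher with CPM above 1 in all 8 samples, and 262 higher and 175 lower by glmTreat. They were 316 to 423 higher and 286 to 346 lower when each sample was left out. By glmTreat, 3 members (Lox, Loxl2 and Loxl3) stayed beyond 2-fold. Replicate numbers did not pair the samples. The correlation of deviations for the same number was 0.0416, -0.0505, -0.0118 and -0.0699, against a mean of 0.00755 for other numbers. With the replicate block, DEGs were 411 higher and 340 lower, 745 of 751 being shared with the fit without it. With 4 samples a group, the exact test gives no p under 0.0286, so it ranks no ratio above another.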
